A study of Mus musculus with 9 samples.

Results

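S-phase tumour cells are the tumour cells of these mammary tumours whose RNA carried the marks of DNA replication. They were chosen by the UMI counts (unique molecular identifiers, each 1 captured RNA molecule) of each cell barcode. A barcode was kept with over 500 and fewer than 7500 genes and under 15% mitochondrial UMIs, and it was a tumour cell with at least 1 UMI of Krt8, an epithelial keratin, or of H2BMc, the mCherry-tagged histone reporter of the injected line, and no UMI of Ptprc (leukocytes) or Pecam1 (endothelium). S-phase tumour cells also had at least 1 UMI of each of Rrm2, Hist1h2ap and Hist1h2ae, and fewer than 3 of Cdc20, Cenpa, Ccnb2, Ccnb1, Cdkn3 and Pttg1 at 2 or more UMIs. The rule found 1610 such cells among 39224 tumour cells, 4.10%, out of 58645 barcodes kept of 89147. Because these genes chose the cells, S-phase cells against the other 37614 tumour cells is a description and was not tested.

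The study compared tumours of the 168FARN mouse mammary cancer line that were wild type (WT), Kmt2c KO or Kmt2d KO, grown in the mammary fat pad of female BALB/c mice bought at 5 to 6 weeks of age, with single-cell RNA libraries of 3 tumours per genotype. All cells carried the H2B-mCherry reporter, and no treatment was given. Each knockout line was a sorted pool that had received 3 guides together with transient Cas9, not a clone, and 1 line per genotype was injected into all 3 mice, so the tumours replicate the mouse and not the knockout. The libraries were linked to genotype by a letter in the comparison names, and the library numbers 1 to 3 only name libraries.

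During S phase a cell copies its genome once. The MCM helicase is loaded onto origins with the help of Cdc6 and Cdt1 before replication begins, cyclin E with Cdk2 starts firing, PCNA holds the polymerases on DNA, and ribonucleotide reductase (Rrm1 and Rrm2) and thymidylate synthase (Tyms) supply the nucleotides. Histone genes are switched on at the same time to package the new DNA, and most of their mRNAs end in a stem-loop bound by Slbp instead of a poly(A) tail. E2F factors drive much of this programme, and Kmt2c and Kmt2d are the catalytic subunits of COMPASS-like complexes that place H3K4 monomethylation at enhancers.

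The 6 guides are shown because they define the genotypes. Each is 20 bases in lower case followed by its PAM in capitals, 5′ to 3′, and each matched the mm9 mouse genome (NCBIM37, not the mm10 build of the files) at 1 place. The Kmt2c guides lay in exon 1 of that gene (Mll3 in the annotation, minus strand) at chr5:25004241-25004260 on the plus strand, chr5:25004359-25004378 on the minus strand and chr5:25004229-25004248 on the plus strand, the first and last within the coding sequence. The Kmt2d guides lay in exon 1 (Mll2, minus strand) outside the annotated coding sequence, all on the plus strand, at chr15:98701571-98701590, chr15:98701464-98701483 and chr15:98701588-98701607. Guides 1 and 3 of each gene overlap.
Kmt2c guide 1: tctttgcgaggccggccccgAGG
Kmt2c guide 2: ggtgactaggatgtcgtcggAGG
Kmt2c guide 3: ggggaagcgccatctttgcgAGG
Kmt2d guide 1: acggtaaatccaggtcggagTGG
Kmt2d guide 2: gaaatcctcatccgagaacaTGG
Kmt2d guide 3: gagtggtcacccttcccccgGGG

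Promoters of 4 genes with high ratios in the S-phase cells are shown to set the letters before the start of an S-phase gene beside its level; Rrm2, a rule gene, was raised by the selection itself. Each is the 250 bases before the RefSeq start (GRCm38.p6, which is mm10), written 5′ to 3′ on the gene's strand, and capitals mark CCAAT or TATAAA, or the E2F letters, on either strand. The E2F letters searched were TTTGGCGC and its 3 variants with other middle bases, namely TTTCCCGC, then TTTCGCGC, and finally TTTGCCGC. No letter run searched contains another. Rrm2 (chr12:24708004-24708253, plus) held 1 CCAAT 50 bases before the start. Hist1h1a (H1f1 in RefSeq, chr13:23763418-23763667, plus) held a CCAAT at 56 and a TATAAA at 33. Tcf19 (chr17:35516825-35517074, minus) held CCAAT at 182, 129 and 98, and E2f7 (chr10:110745189-110745438, plus) held the reverse complement of TTTCCCGC at 198 and that of CCAAT at 46 and 14.
Rrm2 promoter: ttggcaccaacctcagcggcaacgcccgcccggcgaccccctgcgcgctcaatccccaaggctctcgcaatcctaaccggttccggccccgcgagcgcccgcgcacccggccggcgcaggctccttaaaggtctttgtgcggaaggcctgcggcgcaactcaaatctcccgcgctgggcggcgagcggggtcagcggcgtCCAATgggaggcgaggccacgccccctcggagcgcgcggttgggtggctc
Hist1h1a promoter: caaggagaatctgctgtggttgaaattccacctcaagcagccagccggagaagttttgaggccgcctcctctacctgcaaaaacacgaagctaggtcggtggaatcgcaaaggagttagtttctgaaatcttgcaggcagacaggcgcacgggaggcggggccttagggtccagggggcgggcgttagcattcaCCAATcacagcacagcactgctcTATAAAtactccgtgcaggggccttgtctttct
Tcf19 promoter: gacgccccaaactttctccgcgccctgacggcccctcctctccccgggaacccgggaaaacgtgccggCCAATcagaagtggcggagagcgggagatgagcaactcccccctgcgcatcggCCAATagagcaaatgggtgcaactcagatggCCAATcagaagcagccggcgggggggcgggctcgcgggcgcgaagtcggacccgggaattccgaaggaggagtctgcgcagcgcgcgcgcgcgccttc
E2f7 promoter: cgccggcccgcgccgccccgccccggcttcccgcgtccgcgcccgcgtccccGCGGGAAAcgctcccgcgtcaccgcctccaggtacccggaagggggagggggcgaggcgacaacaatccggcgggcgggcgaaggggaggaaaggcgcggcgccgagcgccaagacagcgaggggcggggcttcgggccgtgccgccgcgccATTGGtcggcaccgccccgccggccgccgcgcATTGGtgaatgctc
The windows of Ccne1 and Mybl2 held none of these letters, and Hist1h2ap and Esco2 are named only. Of the 123 genes more than 2-fold higher in S-phase cells in all 9 libraries (described below, the rule genes Rrm2 and Hist1h2ap included), 97 had a promoter in the RefSeq table, and 58 of them (59.8%) held CCAAT against 34.5% of 27025 promoters, while 13 (13.4%) held the E2F letters against 1.91% and 10 (10.3%) TATAAA against 12.97%. Among the replication-dependent histone genes, 59 of 65 had a promoter, of which 48 (81.4%) held CCAAT and 28 (47.5%) TATAAA. Of 13 origin licensing genes with a promoter, 8 held CCAAT and 5 the E2F letters, and none held TATAAA. Of 18 nucleotide supply genes with a promoter, 7 (38.9%) held CCAAT, none the E2F letters and 2 TATAAA, and of 22 fork genes 12 held CCAAT and 3 the E2F letters. These matches describe letters in a window and were not tested.

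The 3 WT tumours gave 30, 50 and 21 S-phase cells, the Kmt2c KO tumours 461, 229 and 136, and the Kmt2d KO tumours 130, 313 and 240. Their summed UMIs ran from 607479 to 6259158 per library, so the WT levels rest on fewer cells and fewer UMIs in total than the knockout levels. The WT cells were also read more deeply: the median UMIs per S-phase cell were 24229, 23300.5 and 28973 in WT, 12893, 13913 and 14147 in Kmt2c KO and 19574, 11205 and 19149 in Kmt2d KO. The mitochondrial filter removed 50.7% and 68.5% of the barcodes of WT libraries 1 and 3. No S-phase cell shared its barcode sequence with an S-phase cell of another library, and 104 had that of some other kept cell elsewhere. Doublets were not removed.

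The library labelled Kmt2d KO 2 stood apart from the other Kmt2d KO libraries. Over the S-phase cells its nearest library was Kmt2c KO 3 (Pearson r of log2(CPM + 1) across genes 0.979), with a mean r of 0.977 to the Kmt2c KO libraries and 0.949 to the other Kmt2d KO libraries, which were nearest to each other (0.986). The 3 small WT libraries were also nearest to a library outside their group, Kmt2d KO 3 (0.949 to 0.964), so this measure alone does not separate the genotypes. The label of Kmt2d KO 2 was kept, and results that rest on this library are given with and without it.

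Replication and proliferation genes outside the rule were also seen in more of these cells, which were read more deeply, at a median of 14231.5 UMIs against 9916 in the other tumour cells and 18919 in the G2/M cells. Top2a, the topoisomerase that untangles replicated DNA and one of the genes that name the cells, had a UMI in 92.2% of S-phase cells (81.2% to 98.5% by library), 26.5% of other tumour cells and 79.6% of the 5371 G2/M cells, defined as tumour cells with 3 or more of the 6 G2/M genes at 2 or more UMIs. Pcna was seen in 82.8% against 35.6%, Cdc6 in 31.8% against 7.11%, and Ccne2, a cyclin E, in 20.9% against 3.09%. Mki67, which marks all cycling cells, was seen in 90.6% of S-phase cells, 25.2% of other tumour cells and 93.4% of G2/M cells. With each cell thinned to 5000 UMIs, which left out 162 S-phase cells and 8215 others, the expected shares in S-phase and other tumour cells were 80.1% and 20.3% for Top2a, 74.2% and 20.4% for Mki67, 66.6% and 22.9% for Pcna, 12.8% and 3.19% for Cdc6 and 7.50% and 1.27% for Ccne2. As a background, Krt8 was seen in 95.6% of S-phase cells and H2BMc in 43.8%, against 13.4% and 6.44% of the 1614 Ptprc-positive cells, whose median was only 2122 UMIs.

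Cells just inside the rule did not stand above those just outside it. The 55 S-phase cells with exactly 1 UMI of each of the 3 S genes (3.42%; median 4484 UMIs per cell) gave 40 of the study's 41 S-phase genes, without the rule gene Rrm2, 2062 summed CPM (UMI counts scaled to a total of 1000000), where the 1198 cells (74.4%) with over 10 UMIs of the 3 together gave 4573 CPM. Just outside, the 1970 tumour cells with only 2 of the 3 S genes (median 9220 UMIs) gave 3465 CPM, the 6559 with 1 (median 11471 UMIs) gave 2410 CPM and the 23714 with none gave 820 CPM. On the G2/M side, the 424 S-phase cells with 2 G2/M genes at 2 or more UMIs had 7054 CPM over 50 of the study's 53 G2/M genes, without rule genes, and the 422 cells left out with 3 such genes had 7671 CPM.

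Against the other tumour cells of the same library, S-phase cells were higher in the machinery that starts and carries replication and in the histones that package its product. Of 10322 genes tested, 123 (1.19%) were more than 2-fold higher in all 9 libraries, among them the rule genes Rrm2 and Hist1h2ap, which the selection itself raised, and 51 (0.494%) more than 2-fold lower. The genes were those with enough UMIs in S-phase cells, so a gene nearly absent there could not be counted as lower. The numbers of higher and lower genes are therefore not comparable. Ccne1, the cyclin E that with Cdk2 starts DNA synthesis, had the largest median ratio, 2.67 on the log2 scale (2.05 to 3.24 over libraries), with a mean of 47.8 CPM in S-phase cells and 8.004 CPM in the others. The linker histone Hist1h1a followed at a median log2 ratio of 2.65, then Tcf19 at 2.41, E2f7, an E2F repressor, at 2.39, Esco2, which acetylates cohesin, at 2.35, and Mybl2, a cell-cycle transcription factor, at 2.33. The rule genes lay in the same range, at 2.46 for Rrm2, 2.41 for Hist1h2ap and 2.08 for Hist1h2ae.

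**Figure D1:**
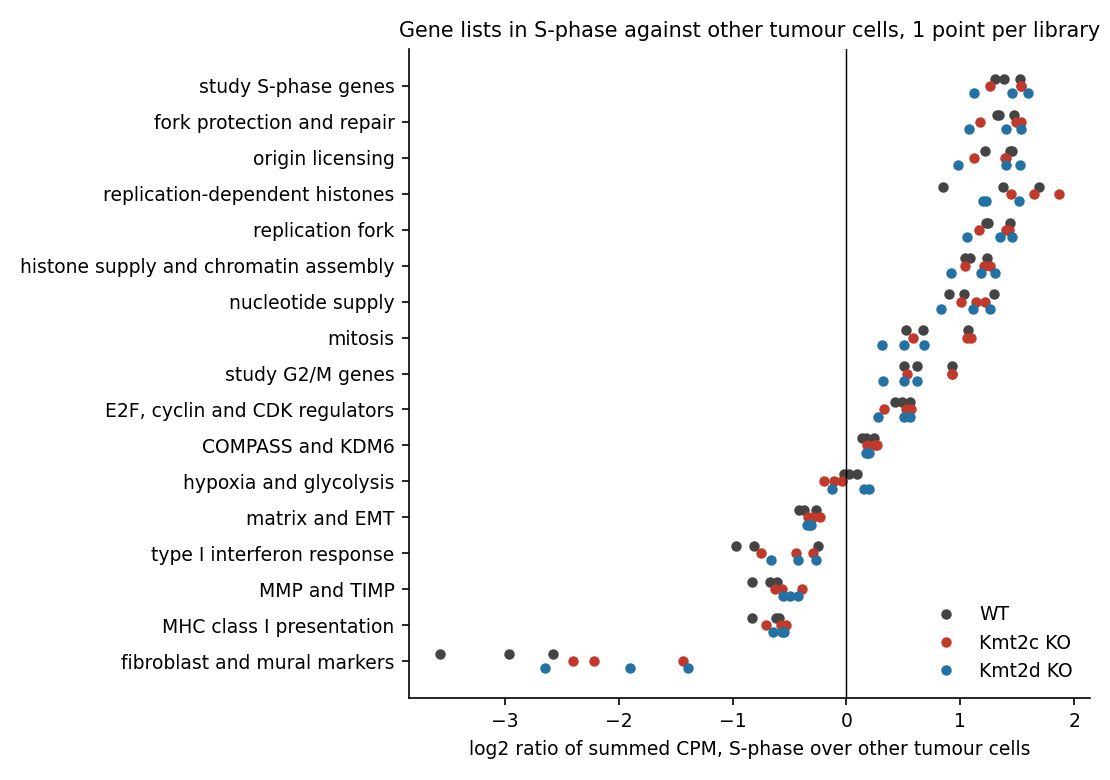
Log2 ratio of summed CPM in S-phase cells to that in the other tumour cells of the same library, 1 row per gene list, with 1 point per library coloured by genotype. The replication lists lie to the right of 0, the interferon and MHC class I medians lie at -0.44 and -0.59, and the fibroblast and mural markers lie lowest, from -3.57 to -1.39.

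Among the initiators, 8 of 15 origin licensing genes and 14 of 28 replication fork genes were more than 2-fold higher in all 9 libraries. Cdc6, which loads the helicase, had a median log2 ratio of 2.01 (0.65 to 2.22), the helicase subunit Mcm5 1.67 (1.28 to 1.95) and the clamp Pcna 1.84 (1.40 to 2.08). Lig1, the ligase that joins Okazaki fragments, was at 1.88 and Clspn, the fork checkpoint adaptor, at 2.19. Among the fork protection and repair genes, 14 of 26 passed, with the helicase Brip1 at 2.13. Of 20 nucleotide supply genes 6 passed, the rule gene Rrm2 among them, and the thymidine kinase Tk1 lay at 2.14 and Tyms at 1.77.

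Histone genes were higher as a group but less evenly. Of 48 replication-dependent histone genes 15, among them the rule gene Hist1h2ap, were more than 2-fold higher in all 9 libraries, and, without the rule genes, the summed CPM of the list had a median log2 ratio of 1.45 that ranged from 0.85 to 1.87. Genes that supply and assemble histones had a summed median log2 ratio of 1.18, and 6 of 18 passed. The linker histone Hist1h1b, at a median log2 ratio of 2.29, had a UMI in 94.2% of S-phase cells and 21.0% of the others (83.8% and 13.7% when thinned). It was also seen in 58.0% of the G2/M cells (45.5% when thinned). Near-identical histone copies can exchange reads in counting, so single histone values are uncertain.

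Genes of the next phase were higher by less, and most other programmes lay near or below the level of the other cells. The study's G2/M genes had a median log2 ratio of 0.62 and the mitosis list 0.67, with 2 of 53 and 2 of 24 genes more than 2-fold higher in all 9 libraries; the other tumour cells include the G2/M cells. The list ratios here are of summed CPM, as medians over libraries, so the highest genes of a list weigh most. The COMPASS and KDM6 sum lay at a median log2 ratio of 0.18, above 0 in all 9 libraries, but the median over its 17 genes tested was -0.04. The 8 endothelial markers, 2 of which had enough UMIs to test, lay at 0.63 (-0.57 to 1.04). Hypoxia and glycolysis genes lay at a median of -0.03, matrix genes at -0.32, interferon response genes at -0.44 and MHC class I genes at -0.59. In the same order, the medians over the genes tested, rule genes included, were -0.42, -0.56, -0.52 and -0.39. Among genes with at least 20 mean CPM in S-phase cells and more than 2-fold lower in all 9 libraries, those that lay lowest included the matrix genes Bgn (-2.35; 0 UMIs in WT 1, so this ratio depends on the prior count) and Eln (-2.09), and the immediate-early phosphatase Dusp1 (-1.95). The 10 fibroblast and mural markers summed to 44.2 to 119 CPM in S-phase cells and 237 to 556 CPM in the others, beside which the lower matrix levels stand; their part in it was not tested.

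Against the 5371 G2/M cells the ratios of single genes varied. The median log2 ratio of S-phase to G2/M cells was 2.28 for Ccne1, 2.27 for Cdc6 and 1.91 for Tcf19. It was 1.20 for Rrm2, 1.17 for E2f7 and 0.26 for Hist1h2ae. Over the genes of a list, rule genes included, the median was 1.04 for the study's S-phase genes, 0.99 for licensing and 0.91 for the fork. For the replication-dependent histones it was 0.24. Without rule genes the histones summed to 1621 CPM in S-phase and 1971 CPM in G2/M cells of WT 1, and were higher in S-phase cells elsewhere. Rrm2 had a UMI in 71.6% and Hist1h2ae in 60.0% of the G2/M cells. The G2/M rule chose these cells too, so this is again a description.

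The S-phase cells varied among themselves in their licensing, histone and mitosis levels. Split within each library by their summed mitosis-list level into a lowest group of 534 cells, a middle group of 536 and a highest group of 540, the origin licensing list stood at 1798, 1755 and 1372 summed CPM, while histones other than the rule genes stood at 1352, 2509 and 3868 CPM. The fork list stood at 2726, 2802 and 2409 CPM. The licensing and fork lists were thus lowest, and the histones highest, in the group with the highest mitosis level. Cdc6 stood at 40.8, 35.1 and 15.9 CPM and E2f1, the activating E2F, at 125, 104 and 63.9 CPM. Top2a stood at 219, 386 and 625 CPM, an order that the split itself fixed, since Top2a is on the mitosis list. Ccne1 was highest in the middle group, at 56.7 CPM against 43.6 and 35.1 CPM.

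Across the 1610 cells the licensing and histone levels had a Pearson r of -0.382 (Spearman rho -0.427), and r was negative within each of the 9 libraries, from -0.012 to -0.516. Histone and mitosis levels had an r of 0.517 (0.380 to 0.704 within libraries), and licensing and fork levels 0.718. Licensing and mitosis levels had an r of -0.277 (rho -0.251). Their rho ran from -0.027 in Kmt2d KO 2 to -0.416 in WT 1. These are correlations across cells that share a library and a total, given as descriptions. Median depth differed between the groups, at 17071.5, 15438 and 11242.5 UMIs from the lowest to the highest mitosis level, and its part in the order was not tested.

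**Figure D2:**
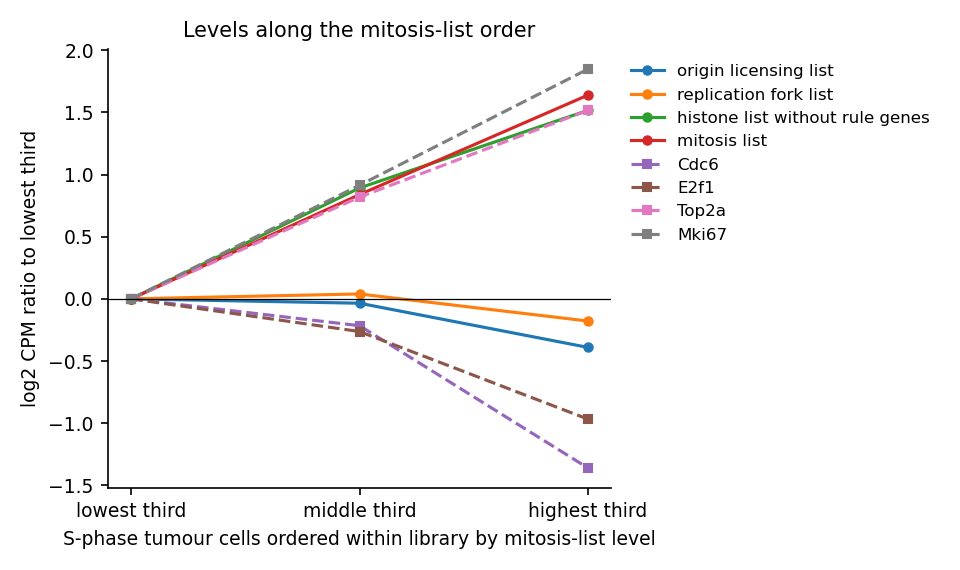
Levels of gene lists (solid lines) and single genes (dashed lines) in the S-phase cells with the lowest, middle and highest mitosis-list level within their library, as log2 ratios of CPM to the lowest group. Licensing, E2f1 and Cdc6 go down to 1372, 63.9 and 15.9 CPM in the last group, where the histones reach 3868 CPM and the mitosis list, which ordered the cells and holds Top2a and Mki67, 4150 CPM.

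The first question between genotypes is whether the knockouts changed how many tumour cells were in S phase. The share of tumour cells that met the rule was 3.40%, 2.67% and 3.34% in WT, 5.50%, 3.91% and 3.39% in Kmt2c KO and 2.80%, 6.95% and 2.84% in Kmt2d KO. These shares move with depth, since 3 genes must each be seen and the G2/M limit takes out more of the deeply read cells. It left out 2274 tumour cells with all 3 S genes, at a median of 22768.5 UMIs. Thinning lets some cells past this limit that it excluded at full depth, so WT 1 went from 30 S-phase cells to 49.7 on average. Thinning also left out tumour cells with fewer than 5000 UMIs, and unevenly. These were 61, 132 and 42 cells in WT, 1884, 834 and 400 in Kmt2c KO and 496, 959 and 3569 in Kmt2d KO. In Kmt2d KO 3 that was 3569 of 8444 tumour cells, and in WT 1 it was 61 of 882. The thinned share is thus not a share of the same cells, and the part of the cells left out was not tested. With each cell thinned to 5000 UMIs the shares were 6.05%, 4.11% and 6.43% in WT (5.53% ± 1.25, SD, n = 3), 7.92%, 5.34% and 5.13% in Kmt2c KO (6.13% ± 1.55, n = 3) and 4.27%, 7.86% and 5.47% in Kmt2d KO (5.87% ± 1.83, n = 3).

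The genotypes overlapped, and permuting the genotypes over libraries in all 1680 ways (exact, Kruskal-Wallis statistic) gave p = 0.993 (adjusted over 4 measures 0.993; the smallest it can give is 0.00357). The mean thinned share was 0.598 percentage points higher in Kmt2c KO than in WT (exact two-sided permutation p = 0.7, where 3 against 3 cannot go below 0.10) and 0.339 points higher in Kmt2d KO (p = 0.9). The thinned G2/M share averaged 6.84%, 8.32% and 8.15% in WT, Kmt2c KO and Kmt2d KO (exact p = 0.439, adjusted 0.586). The study's S-phase genes summed to 1806, 1681 and 1875 CPM on average in all tumour cells of the 3 genotypes (exact p = 0.339, adjusted 0.586), so no difference in S-phase activity was detectable with these libraries.

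**Figure D3:**
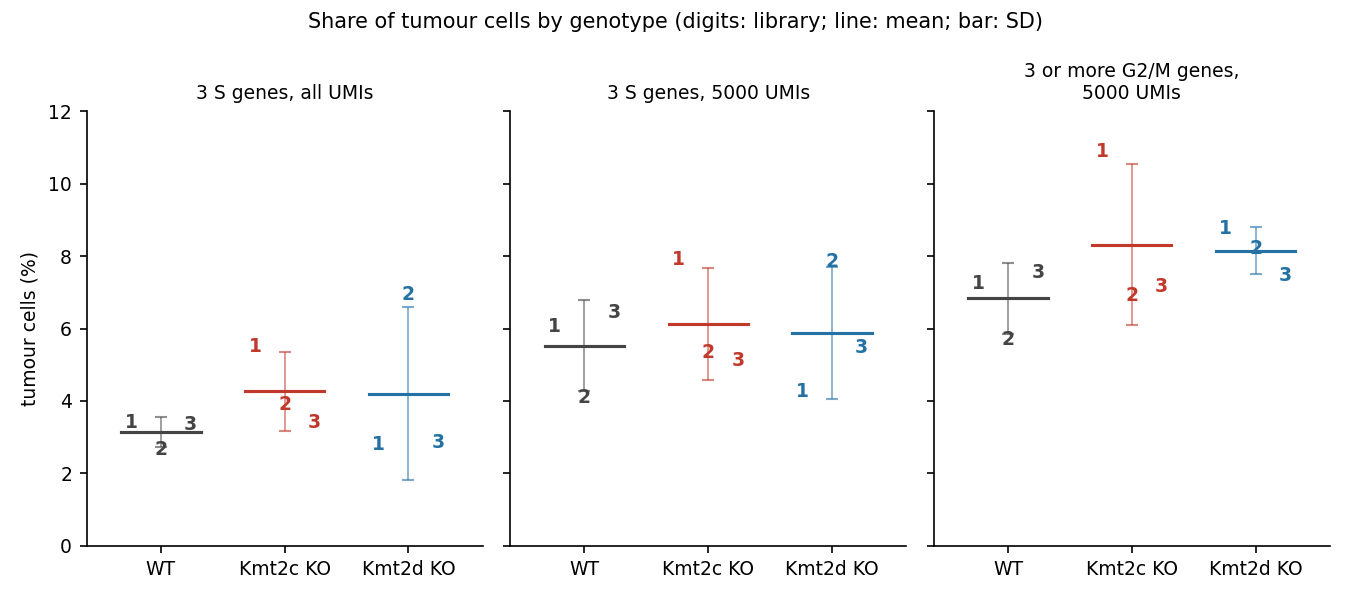
Percent of tumour cells in each library (digits name libraries) that met the S-phase rule as counted and with cells thinned to 5000 UMIs, and that met the G2/M rule when thinned, with the mean (line) and SD (bar) of 3 libraries per genotype. In the thinned panels the groups overlap, and Kmt2d KO 2 has the highest share as counted (6.95%) and the second highest after thinning (7.86%).

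The second question is which genes the S-phase cells of knockout tumours expressed differently, tested on UMIs summed per library with edgeR's quasi-likelihood test and Benjamini-Hochberg adjustment over 10322 genes; a call is an adjusted p below 0.05. The targeted genes come first. Kmt2c stood at 41.8, 28.5 and 37.9 CPM in WT, 30.5, 31.6 and 48.8 CPM in Kmt2c KO and 31.5, 50.4 and 38.4 CPM in Kmt2d KO, with a log2 fold change of -0.01 ± 0.24 (SE) in Kmt2c KO (adjusted p = 0.997). Kmt2d stood at 17.2, 6.43 and 8.23 CPM in WT, 17.9, 21.1 and 26.2 CPM in Kmt2c KO and 21.0, 34.4 and 21.98 CPM in Kmt2d KO, a log2 fold change of 1.26 ± 0.34 in Kmt2d KO (adjusted p = 0.252). Neither transcript was called in its own knockout. Small deletions at a guide site need not change a transcript's count, so these levels check no label. The 17 COMPASS and KDM6 genes tested, among them the demethylase Kdm6a, had no call in either knockout. Without Kmt2d KO 2, Kmt2d itself was called higher in Kmt2c KO (0.98).

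In Kmt2c KO, 234 genes were called (2.27% of those tested), 142 higher (1.38%) and 92 lower (0.891%). The S-phase cells of Kmt2c KO tumours were higher in interferon response and MHC class I genes, while the genes of replication itself had no call. Of 25 type I interferon response genes tested, 15 rose and none fell, with a median log2 fold change of 3.30 against -0.02 over all genes. Of 20 MHC class I presentation genes 17 rose, with a median of 1.49. Without Kmt2d KO 2 the counts were 25 of 25 and 18 of 20, with medians of 3.33 and 1.49, where 473 of all 10422 genes were called higher. None of the 41 study S-phase genes, 15 licensing, 28 fork, 20 nucleotide supply, 18 histone supply, 26 repair or 26 E2F, cyclin and CDK genes was called in either direction. Their medians lay slightly below the -0.02 of all genes, at -0.14 for the S-phase genes, -0.15 for licensing, -0.18 for the fork and -0.06 for nucleotide supply, and 10 of 41, 2 of 15, 5 of 28 and 6 of 20 genes had values above 0, against 4942 of all 10322. Without Kmt2d KO 2, where 473 of all 10422 genes were called higher and 395 lower, 3 S-phase, 1 fork, 1 histone supply and 1 repair gene were called lower and 1 nucleotide supply gene higher. With the S-phase rule applied to cells thinned to 5000 UMIs, chosen after the data were seen (407 of all 10764 genes higher and 331 lower), 2 fork, 1 repair and 1 E2F, cyclin and CDK gene were lower, and 1 nucleotide supply and 2 E2F, cyclin and CDK genes higher. With both changes, where 787 of all 10887 genes were higher and 736 lower, 3 S-phase, 1 licensing, 6 fork and 5 repair genes were lower, and none of these 4 lists had a gene higher. The lower calls of the S-phase and licensing lists were about as frequent in that fit as over all genes. Those of the fork (6 of 28) and repair (5 of 26) lists were more frequent, which was not tested. The same fit had 1 nucleotide supply gene higher and 1 lower, and 1 histone supply gene lower. Of the E2F, cyclin and CDK genes 3 were higher and 2 lower.

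**Figure D4:**
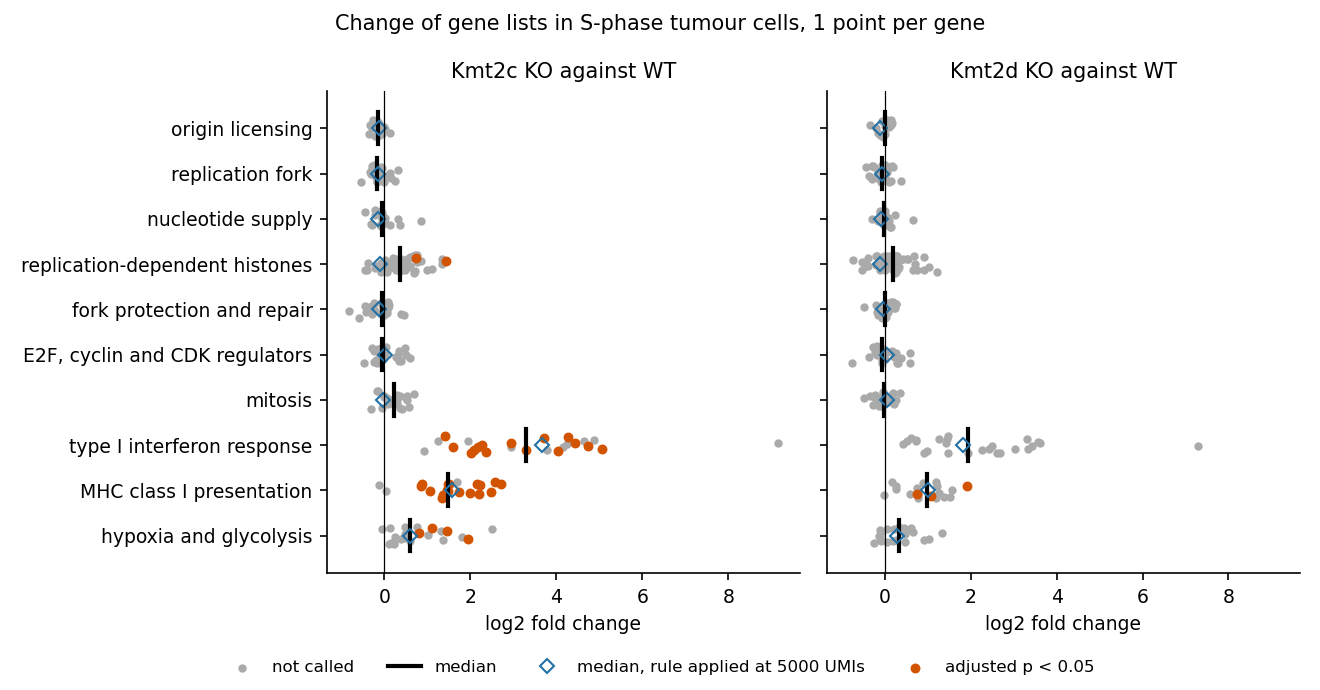
Log2 fold change of each gene in S-phase cells of Kmt2c KO and Kmt2d KO against WT, by gene list, with called genes in orange, a bar at the list's median and a diamond at the median with the rule applied at 5000 UMIs per cell. Interferon and MHC class I genes lie to the right in Kmt2c KO (medians 3.30 and 1.49) and the replication lists lie around 0; the farthest interferon gene, Rsad2, had no UMI in WT, so its fitted value depends on the prior count.

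Of the interferon genes, Bst2 (tetherin, which holds budding virus at the membrane) stood at 106, 102 and 174 CPM in WT and 854, 1220.1 and 889.6 CPM in Kmt2c KO, a log2 fold change of 2.94 ± 0.33 (adjusted p = 0.000416). Ifi27l2a, an interferon-induced gene, stood at 236, 275 and 486 CPM against 1286, 1554 and 1480.0 CPM (2.08 ± 0.24). Ly6a (Sca-1, a surface protein and stem cell marker) went from 36.8, 22.97 and 26.3 CPM to 412, 722 and 561 CPM (4.27 ± 0.48, adjusted p = 0.000416). The groups did not overlap for any of these 3, as for 26.3% of all genes tested in this comparison, and the 3 stayed called when any 1 library was left out.

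Other interferon calls depended on single libraries. Isg15, a ubiquitin-like modifier, stood at 17.2, 24.8 and 87.2 CPM in WT and 510.0, 860.4 and 648 CPM in Kmt2c KO (4.04 ± 0.74, adjusted p = 0.0141), and Irf7, the factor that amplifies interferon genes, had a log2 fold change of 4.43 ± 0.71 (adjusted p = 0.00633). Isg15 lost its call without WT 1, WT 2 or Kmt2c KO 2 (adjusted p up to 0.111) and Irf7 without WT 1 or WT 2 (up to 0.0720). Zbp1, Ifi47, Oasl2, Gbp7 and Gbp3 were called with log2 fold changes of 4.25 to 5.05 but lost the call when any WT or Kmt2c KO library was left out. Rsad2 had no UMI in any WT library and was at least 20.5-fold higher in Kmt2c KO by its mean CPM, taking 3 UMIs over the WT group as the floor, but it was not called. With Rsad2 at that bound the median of the list was still 3.30. Without the 10% of S-phase cells with most UMIs in each library, 10 of 26 interferon genes and 12 of 20 MHC class I genes were called higher, with medians of 4.53 and 1.604, where 71 of all 10538 genes were. WT 3 kept 19 cells there, under the minimum of 20, so this fit also dropped WT 3.

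Summed over the list, WT and Kmt2c KO did not overlap. The summed CPM in S-phase cells was 603, 613 and 1172 in WT, 4406, 6325 and 5251 in Kmt2c KO and 1175, 3700 and 1635 in Kmt2d KO. The other tumour cells of the same libraries held 1176, 1076 and 1391 CPM in WT, 5993, 7739 and 8809 CPM in Kmt2c KO and 1860, 4963 and 1970 CPM in Kmt2d KO. The Kmt2c KO libraries lay above every WT library in both, and Kmt2d KO 2 lay far above the other Kmt2d KO libraries.

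**Figure D5:**
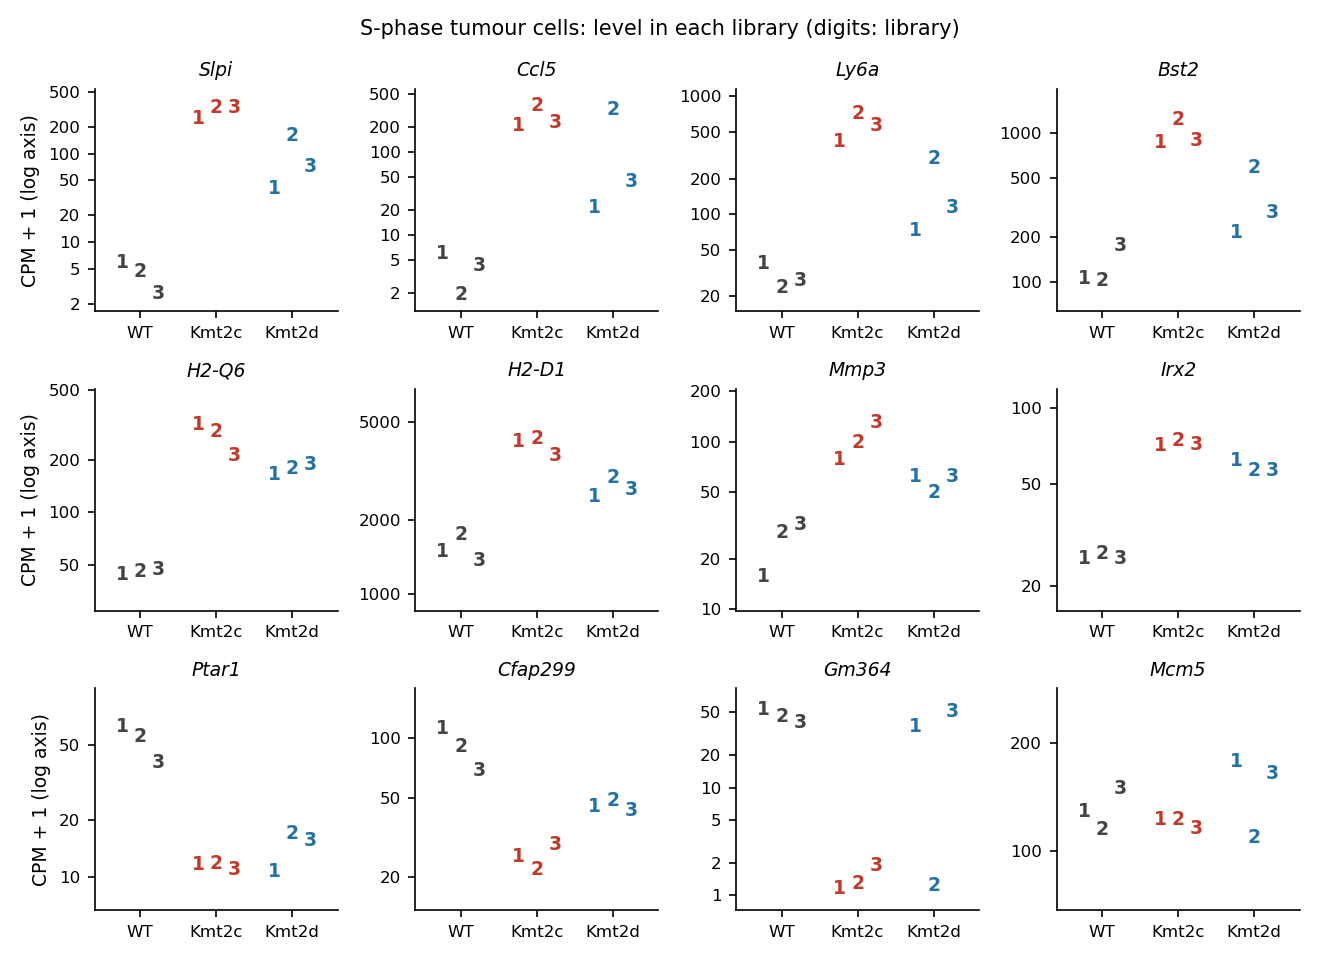
CPM + 1 of 12 genes in S-phase cells of each of the 9 libraries (digits name libraries) on log axes that differ between panels, with WT, Kmt2c KO and Kmt2d KO side by side. Slpi, Ly6a and H2-Q6 separate Kmt2c KO from WT with Kmt2d KO between, Ptar1 is lower in both knockouts, Gm364 is low in Kmt2c KO and Kmt2d KO 2, and Mcm5 overlaps.

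The MHC class I rise covered heavy chains, the light chain and the proteasome that cuts their peptides. H2-D1 stood at 1479, 1744 and 1368 CPM in WT and 4164, 4254 and 3645 CPM in Kmt2c KO, a log2 fold change of 1.36 ± 0.13 (adjusted p = 0.000103). The non-classical H2-Q6 stood at 43.0, 45.0 and 46.1 CPM against 318, 288 and 209 CPM (2.58 ± 0.19, adjusted p = 3.46e-05). The immunoproteasome subunit Psmb9 stood at 57.7, 47.8 and 57.6 CPM against 372, 388 and 329 CPM (2.72, adjusted p = 0.000441). These 3, with H2-K1, H2-Q4 and the light chain B2m (1.47, adjusted p = 0.00298), stayed called without any 1 library. H2 heavy chains, like Gbp genes, are near-identical copies whose reads can be split, so their single values are uncertain.

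Slpi and Mmp3 also rose in Kmt2c KO. Slpi, a leukocyte protease inhibitor that epithelia secrete, stood at 4.91, 3.68 and 1.65 CPM in WT (4, 4 and 1 UMIs) and 245, 334 and 334 CPM in Kmt2c KO, a log2 fold change of 6.35 ± 0.59 (adjusted p = 0.000103). Its UMIs came from 5 of the 101 WT cells. Mmp3 (stromelysin-1, which cuts matrix) stood at 14.7, 27.6 and 31.3 CPM against 77.6, 98.3 and 129 CPM (2.00 ± 0.26, adjusted p = 0.00117), and Mmp10 was the only other of 7 MMP and TIMP genes called (2.41, adjusted p = 0.0191, lost without WT 1, WT 3, Kmt2c KO 2 or Kmt2c KO 3). In Kmt2d KO Mmp3 had a log2 fold change of 1.18 and was not called (adjusted p = 0.142), but it was in 1 of the 9 fits that left out 1 library.

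The chemokine gene Ccl5 was carried by few WT molecules. It stood at 4.91, 0.919 and 3.29 CPM in WT, which is 4, 1 and 2 UMIs, and at 209, 358 and 223 CPM in Kmt2c KO (6.50 ± 1.22, adjusted p = 0.0162; lost without any WT library or without Kmt2c KO 2, up to 0.108). T and NK cells also make Ccl5, and their 10 markers were all at 0 in WT S-phase cells, summed to 0.452 to 1.17 CPM in Kmt2c KO (1 to 4 of 10 seen) and to 1.21 to 3.33 CPM in Kmt2d KO (3 to 7 seen). The 10 macrophage markers summed to 22.1 to 29.6 CPM in WT, 40.1 to 59.4 CPM in Kmt2c KO and 25.5 to 80.6 CPM in Kmt2d KO. The part of such cells in the Ccl5, interferon and MHC class I levels was not tested. The 8 endothelial markers summed to 3.68 to 11.03 CPM in WT, 12.9 to 26.7 CPM in Kmt2c KO and 10.1 to 21.5 CPM in Kmt2d KO. Each WT library showed 2 of the 8, each Kmt2c KO library 3 and the Kmt2d KO libraries 3 to 8. WT and Kmt2c KO did not overlap in this sum, as for 26.3% of all single genes tested. In Kmt2c KO the 2 markers with enough UMIs to test went opposite ways, with log2 fold changes of -1.12 and, for Cdh5, 2.45. Of 3 macrophage, 2 endothelial and 6 fibroblast and mural markers with enough UMIs to test, none was called in either knockout, but without Kmt2d KO 2 each of the 3 lists had 1 gene called higher in Kmt2c KO.

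Hypoxia and matrix genes gave smaller groups of calls. Of 23 hypoxia and glycolysis genes 4 rose, where 142 of all 10322 genes did, with a median log2 fold change of 0.59. The count was 10 of 24 with the thinned rule, where 407 of all 10764 genes rose. Without Kmt2d KO 2 it was also 10 of 24, where 473 of all 10422 rose. With both changes it was 15 of 24 (787 of all 10887). It was 1 of 24 without the deepest 10% of S-phase cells (71 of all 10538), a fit that also dropped WT 3. Ddit4, an mTOR inhibitor induced by stress, rose by 1.93 ± 0.33 (adjusted p = 0.00877; lost without any WT library) and Bnip3, a mitophagy receptor, by 1.46 ± 0.29 (adjusted p = 0.0233; lost without WT 1, WT 3 or Kmt2c KO 2). Of 14 matrix and EMT genes 2 rose and 3 fell, where 142 and 92 of all 10322 genes did, and 1 of the 3 was Krt8, which the rule used. Col3a1, a fibrillar collagen of stromal and mesenchymal cells, stood at 6.14, 22.1 and 31.3 CPM in WT and 1.12, 0.292 and 0.452 CPM in Kmt2c KO, the latter from 7, 1 and 1 UMIs (-4.65 ± 0.58, adjusted p = 0.000755). The fibroblast and mural markers summed to 44.2 to 92.8 CPM in WT and 74.0 to 95.4 CPM in Kmt2c KO, and their part in the Col3a1 level was not tested.

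Among the genes that fell, Ptar1, a prenyltransferase subunit, stood at 61.4, 54.2 and 39.5 CPM in WT and 10.7, 10.8 and 9.94 CPM in Kmt2c KO, a log2 fold change of -2.34 ± 0.22 (adjusted p = 0.000111). Cfap299 (cilia and flagella associated) fell from 111, 90.1 and 67.5 CPM to 24.3, 20.8 and 28.0 CPM (-1.93, adjusted p = 0.000103), and Tenm4, a teneurin, fell by 1.79 on the log2 scale (adjusted p = 0.000416). All 3 stayed called without any 1 library. Gm364 stood at 51.6, 45.0 and 39.5 CPM in WT and at 0.160, 0.292 and 0.904 CPM in Kmt2c KO (adjusted p = 0.0192), but in Kmt2d KO at 35.6, 0.222 and 50.1 CPM, and it lost the call without any WT or Kmt2c KO library. Serpinh1, the collagen chaperone, showed the same split, at 168, 125 and 112 CPM in WT, 53.4, 31.6 and 32.5 CPM in Kmt2c KO (-1.79, adjusted p = 0.0454, lost the same way) and 199, 53.1 and 204 CPM in Kmt2d KO. For both genes the low Kmt2d KO library was Kmt2d KO 2.

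The best-known replication genes were not called between WT and Kmt2c KO. Pcna stood at 228, 272 and 221 CPM in WT, 252, 258 and 302 CPM in Kmt2c KO and 272, 260.1 and 269.6 CPM in Kmt2d KO, a log2 fold change of 0.12 ± 0.12 in Kmt2c KO (adjusted p = 0.688). Mcm5 stood at 128, 114 and 148 CPM, 121, 122 and 114 CPM and 177, 108 and 164 CPM, with -0.15 ± 0.19 (adjusted p = 0.767) in Kmt2c KO and 0.17 ± 0.19 (0.872) in Kmt2d KO. Rrm2, which the rule used, stood at 522, 613 and 634 CPM, 517, 521 and 457 CPM and 742, 364 and 600.2 CPM. Each of the 6 MCM subunits had a log2 fold change between -0.29 (Mcm2) and -0.00064 (Mcm7) in Kmt2c KO and between -0.20 (Mcm7) and 0.17 (Mcm5) in Kmt2d KO, with standard errors of 0.13 to 0.19. Ccne1 (-0.19 ± 0.22), Tyms (-0.05 ± 0.23) and Tk1 (0.02 ± 0.16) were not called in Kmt2c KO either. Some uncalled genes were among the 26.3% of all genes that did not overlap: the chromatin remodeller Hells stood at 297, 218 and 245 CPM in WT and 173, 182 and 194 CPM in Kmt2c KO (-0.51 ± 0.14, adjusted p = 0.0747), and Lig1 at 194, 207 and 211 CPM against 162, 160.0 and 189 CPM (-0.30 ± 0.12, adjusted p = 0.229).

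Histone and mitosis genes leaned higher in Kmt2c KO, and this moved with the setting. The median log2 fold change was 0.37 over 48 histone genes and 0.23 over 24 mitosis genes, with 1 histone gene called outside the rule, Hist1h3c (1.42, adjusted p = 0.0327, resting on 4.59 to 13.2 CPM in WT). The 48 histone genes include the rule genes Hist1h2ap (0.16) and Hist1h2ae, so their median is not free of the selection. The rule gene Hist1h2ae had a log2 fold change of 0.73, given as a description, since its UMIs chose the cells at depths that differed between genotypes. Without Kmt2d KO 2, 7 of 49 histone genes, Hist1h2ae among them, 4 of 24 mitosis genes and 7 of 53 G2/M genes were called higher, against 473 of all 10422 genes. With the rule applied to cells thinned to 5000 UMIs, the medians were -0.10 and -0.04 and Hist1h2ae had a log2 fold change of -0.03, while the interferon list had 23 of 26 genes higher with a median of 3.67. Of the study's 53 G2/M genes Tubb4b (0.66, adjusted p = 0.0377) and Cks2 (0.55, adjusted p = 0.0458) were called higher, and none was called with the thinned rule. Each of the calls of Hist1h3c, Tubb4b and Cks2 was also lost in 5 or 6 of the 9 fits that left out 1 library (adjusted p up to 0.200).

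In Kmt2d KO, 15 genes were called (0.145%), 10 higher (0.0969%) and 5 lower (0.0484%), with the 15 shared between 3 MHC class I genes and single genes of other kinds. No replication, histone, mitosis or interferon gene was called, with medians of -0.01 over the study's S-phase genes, 0.01 over licensing and -0.07 over the fork genes. Without Kmt2d KO 2 these medians were 0.14, 0.18 and 0.09, and 1 histone gene was called lower. H2-Q6 stood at 163, 176 and 188 CPM against 43.0, 45.0 and 46.1 CPM in WT (1.93 ± 0.19, adjusted p = 0.0013), H2-Q4 at 337, 472 and 398 CPM against 184, 179 and 186 CPM (1.09 ± 0.15, adjusted p = 0.0173) and H2-D1 at 2475, 2959 and 2639 CPM (0.76 ± 0.13, adjusted p = 0.0408). All 3 Kmt2d KO libraries lay above all WT libraries and below all Kmt2c KO libraries for these genes; 13.95% of all genes tested did not overlap between Kmt2d KO and WT. H2-Q6 and Ptar1 stayed called without any 1 library, H2-Q4 lost the call without any WT library (up to 0.117) and H2-D1 without any of 6 libraries, among them each WT library (up to 0.230).

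Among the other Kmt2d KO calls, Slpi stood at 38.8, 158 and 70.7 CPM (4.58 ± 0.64, adjusted p = 0.0173; lost without any WT library). Irx2, an Iroquois homeobox factor, stood at 61.0, 55.7 and 55.5 CPM against 24.6, 25.7 and 24.7 CPM (1.14 ± 0.17, adjusted p = 0.0173), and Cfap77 at 93.4, 68.2 and 75.4 CPM against 29.5, 33.1 and 31.3 CPM (1.28 ± 0.19, adjusted p = 0.0173). These last 2 lost the call without any WT library. The same 2 genes stood at 70.1 to 73.4 CPM and 104 to 116 CPM in Kmt2c KO, which shares the WT libraries with this comparison.

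Ptar1 fell in Kmt2d KO as well, to 9.70, 16.0 and 14.6 CPM (-1.98 ± 0.22, adjusted p = 0.00196). Cfap299 stood at 44.5, 47.7 and 42.3 CPM (-1.06, adjusted p = 0.0408) and Rps27l, a p53 target that encodes a ribosomal protein variant, at 301, 327 and 309.6 CPM against 445, 484 and 469 CPM in WT (-0.63 ± 0.11, adjusted p = 0.0476). Both of these lost the call when any of several libraries was left out, Cfap299 in 6 and Rps27l in 8 of 9 fits (up to 0.230 and 0.236). The elastin gene Eln, the stress gene Nupr1 and Msl3 were also called higher and Gm12415 lower, each lost in 6 to 8 of those 9 fits.

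The interferon genes of Kmt2d KO were split by library. Their median log2 fold change was 1.94 with no call among 25, and without Kmt2d KO 2 it was 0.99 with 3 genes called higher, against 56 of all 10422. Bst2 stood at 215, 582 and 291 CPM (1.47, adjusted p = 0.134). Cd274 (PD-L1), an interferon-inducible checkpoint ligand, stood at 1.21, 34.0 and 1.85 CPM in Kmt2d KO, 1.23, 3.68 and 0 CPM in WT and 15.5, 24.0 and 18.1 CPM in Kmt2c KO, and was not called in Kmt2c KO (adjusted p = 0.26) or Kmt2d KO (0.66). In Kmt2c KO its log2 fold change was 3.21, and it was called in 1 of the 9 fits that left out 1 library. For Bst2 and Cd274 the high Kmt2d KO library was Kmt2d KO 2, and without it the log2 fold change of Cd274 in Kmt2d KO went from 2.64 to -0.31.

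The comparison of the 2 knockouts turned on that library. With all 9 libraries 1 gene differed (0.00969%), Col3a1, at 13.3, 16.2 and 11.9 CPM in Kmt2d KO against 1.12, 0.292 and 0.452 CPM in Kmt2c KO (adjusted p = 0.0158, lost without WT 2, Kmt2c KO 2 or Kmt2c KO 3). An unadjusted p below 0.05 was reached by 729 genes. Without Kmt2d KO 2 the count was 866 of 10422, of which 372 were higher and 494 lower in Kmt2d KO, including 25 of the interferon genes and 18 MHC class I genes lower.

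Leaving that library out also brought replication genes into the comparison. Of the licensing genes 6 of 15 and of the study's S-phase genes 10 of 41 were called higher in Kmt2d KO than in Kmt2c KO, and 12 of 53 G2/M genes lower, in the fit where 372 and 494 of all 10422 genes were. Of the 41 only 40, and of the 53 only 50, were outside the cell rule. The rest, Rrm2 among them, chose the cells, so a call of theirs is a description. With the rule also applied at 5000 UMIs per cell, 430 of all 10887 genes were higher and 618 lower, the interferon and MHC class I counts were 26 and 18 lower, and the licensing list had 0 calls, the S-phase genes 3 higher and the G2/M genes 1 higher. That rule also changes which cells are counted and leaves out shallow ones, so depth was not varied alone. Against WT, leaving Kmt2d KO 2 out gave 868 calls in Kmt2c KO, including all 234, and 105 in Kmt2d KO, including all 15.

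The third question is whether the knockouts acted differently in S-phase cells and in the other tumour cells of the same tumours. Most S-phase calls were also called there, where 7.70% of 15084 genes were higher and 6.94% lower in Kmt2c KO. These were 130 of the 142 genes higher in Kmt2c KO (91.5%, and 11.2% of the 1161 higher genes of the other cells) and 88 of the 92 lower (95.7% and 8.40% of 1047). The cells come from the same tumours, so the 2 sets of calls are not independent. The other cells, with many more UMIs, also had 24 interferon genes and 18 MHC class I genes higher in Kmt2c KO. A direct test of the difference between the cell states, within libraries and over 12733 genes, called 4 genes for Kmt2c KO (0.0314%) and 5 for Kmt2d KO (0.0393%), and no gene of the licensing, fork, histone or nucleotide lists was among them.

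All 9 differences were positive: the log2 change from WT to knockout was higher in S-phase cells than in the others, whatever the level itself. Col6a1, a chain of collagen VI, stood at 27.0, 48.7 and 21.4 CPM in WT S-phase cells and 343, 337 and 273 CPM in the other WT tumour cells. In Kmt2c KO it stood at 60.6, 59.1 and 60.5 CPM against 151, 238 and 205 CPM, and in Kmt2d KO at 95.4, 61.1 and 109.5 CPM against 355, 162 and 361 CPM. Col6a1 was not called between genotypes in S-phase cells (0.78 in Kmt2c KO, adjusted p = 0.176, and 1.34 in Kmt2d KO, adjusted p = 0.113), and its log2 fold change in the other cells was -0.67 and -0.13. The knockout change was thus 1.56 ± 0.22 larger on the log2 scale in S-phase cells for Kmt2c KO (adjusted p = 0.00157) and 1.57 ± 0.22 for Kmt2d KO (adjusted p = 0.00096), and both were called without any 1 library. Col6a1 is also a gene of fibroblasts, whose 10 markers summed to 372 to 556 CPM in the other WT cells and 44.2 to 92.8 CPM in WT S-phase cells. The markers summed to 257 to 390.2 and 74.0 to 95.4 CPM in Kmt2c KO and to 237 to 452 and 71.9 to 119 CPM in Kmt2d KO. Their differences had the same direction as that of Col6a1, with medians of 0.82 and 0.98 on the log2 scale and none called, and their part in the Col6a1 difference was not tested.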

How the data were processed

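The authors ran Cell Ranger 7.0.1 (mm10, per the labels' processing notes) on 10x 5′ libraries of 9 tumours and deposited 1 aggregated matrix of raw UMI counts per gene and cell barcode. Barcode suffixes were taken as rows of the aggregation table, and genotype letters from the comparison names. Here cells were selected by the rule given above, and the counts of S-phase and other tumour cells were summed per library. Genes passing edgeR's filterByExpr were tested with edgeR 4.0.16 (TMM, quasi-likelihood, all 9 libraries in 1 fit, Benjamini-Hochberg adjustment), with a library block for the difference between cell states. Libraries needed 20 members. Thinning for the S-phase and G2/M shares drew 5000 UMIs per cell in 10 draws, and shallower cells were left out. For gene values with the rule applied at 5000 UMIs, 1 draw chose the cells, and all UMIs of the chosen cells were summed. Shares of cells with a UMI of a gene were thinned by the hypergeometric expectation. Shares were compared by exact two-sided permutation in scipy 1.17.1. Ratios to other tumour cells were computed per library. The scripts were tested on simulated data. The P-values measure the spread between tumours of 1 line per genotype.

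Genes were named by a rule: for each knockout the 10 largest called rises and falls without overlap and with at least 20 mean CPM, called differences, the 4 highest and up to 3 called genes of each list, a few chosen genes, and the 15 highest and 5 lowest ratios. Members and lists were chosen with earlier results of these data known. Alternatives covered DESeq2 1.42.0, its size factors, filters, fewer groups, other cell rules, and each library left out. Intervals for single libraries' shares cover counting error only and are not printed. The deposited tables of the authors' own comparisons hold fold changes and p-values and were not used. Some called genes are not reported here.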

Additional observations from a re-analysis of the deposited data

Results flagged for a closer look

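In S-phase tumour cells 9 knockout effects differed, in a direct test with edgeR (Benjamini-Hochberg over 12733 genes), from the effect in the other tumour cells of the same tumours. Each value below is the log2 change in S-phase cells minus the change in the others. For Kmt2c KO it was 1.56 for Col6a1, 4.16 for Ccl5 (adjusted p = 0.00157), 1.07 for the chemokine gene Ccl2 (adjusted p = 0.00449) and 0.51 for Def8 (adjusted p = 0.0121). For Kmt2d KO it was 1.57 for Col6a1, 4.32 for Ccl5 (adjusted p = 0.00096), 0.82 for the scavenger receptor gene Colec12 (adjusted p = 0.0114), 1.17 for Nupr1 and 0.68 for the fibronectin gene Fn1 (both adjusted p = 0.0370). Fibroblasts also express Col6a1, Fn1 and Colec12, and the median difference of the fibroblast and mural markers had the same direction, at 0.82 for Kmt2c KO and 0.98 for Kmt2d KO, with none called; their part in these differences was not tested. Both knockouts were set against the same 3 WT libraries.

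Ccl5 rested on 4, 1 and 2 UMIs in WT S-phase cells, while the other WT cells held 13.8, 21.9 and 113 CPM. In Kmt2d KO it stood at 20.6, 322 and 43.4 CPM in S-phase cells and 32.6, 154 and 38.6 CPM in the others, highest in Kmt2d KO 2. In Kmt2d KO it was not called in S-phase cells alone (5.45, adjusted p = 0.175). Its difference was lost without WT 3 in both knockouts (adjusted p = 0.262). Ccl2 was higher in all 3 Kmt2c KO libraries, at 373, 719 and 574 CPM, than in WT, at 174, 292 and 142 CPM. The other WT cells held 201, 285 and 221 CPM of Ccl2 and the other Kmt2c KO cells 206, 339 and 378 CPM, and this difference was called without any 1 library. Without the deepest 10% of S-phase cells 1 of the 4 Kmt2c KO differences stayed called, that of Col6a1, and 4 of the 5 of Kmt2d KO. That fit also dropped WT 3.

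Fn1 stood at 533, 808 and 517 CPM in WT S-phase cells and 1013, 1249 and 1249.6 CPM in Kmt2d KO S-phase cells, against 2701, 2866 and 2274 CPM and 3335, 2902 and 3208 CPM in the other cells. In Kmt2d KO S-phase cells alone Fn1 was not called (0.86, adjusted p = 0.0584). Nupr1 stood at 40.5, 59.7 and 37.9 CPM in WT and 94.6, 106 and 92.0 CPM in Kmt2d KO S-phase cells, against 243, 267 and 218 CPM and 280.0, 173 and 246 CPM in the others. Colec12 stood at 117, 124 and 102 CPM in WT S-phase cells and 156, 195 and 206 CPM in Kmt2d KO, against 431, 438 and 372 CPM and 391, 344 and 424 CPM in the other cells, and it was not called in S-phase cells alone (0.64, adjusted p = 0.133). Def8 stood at 3787, 4858 and 4448 CPM in WT S-phase cells and 5802, 5272 and 5990 CPM in Kmt2c KO, against 5398, 6724 and 5959 CPM and 5337, 5563 and 5622 CPM in the other cells, and it was not called in S-phase cells alone (0.34, adjusted p = 0.197). The Fn1 difference was lost without WT 1, WT 3, Kmt2d KO 2 or Kmt2d KO 3 (adjusted p up to 0.509), that of Nupr1 without any WT library or Kmt2d KO 2 (up to 0.396), that of Colec12 without WT 1 or WT 3 (up to 0.0943) and that of Def8 without WT 1 or Kmt2c KO 1 (up to 0.149).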

How the results depend on the processing

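The counts of called genes moved with most settings. Among values of named genes that were called in either fit, the direction turned for 1 gene: Hist1h2ae, a rule gene, went from 0.73 to -0.028 with the rule at 5000 UMIs per cell, and to -0.026 also without Kmt2d KO 2. Uncalled values near 0, and Cd274 in Kmt2d KO, changed sign when 1 library was left out. For named genes between genotypes, 8020 values stayed on their side of the threshold, 404 lost a call and 353 gained one. In the order Kmt2c KO against WT, Kmt2d KO against WT and Kmt2d KO against Kmt2c KO, with 234, 15 and 1 calls as reported, no low-count filter gave 679, 255 and 232, and the rule at 5000 UMIs gave 738, 34 and 10 (1523, 228 and 1048 also without Kmt2d KO 2). Requiring H2BMc, which drops WT 3, gave 82, 4 and 0, requiring 2 UMIs of each S gene, which leaves WT 2 as a lone WT sample assumed to vary like the other groups, gave 8, 0 and 0, and leaving out the deepest 10% gave 93 and 5 in the first 2. The fit without the deepest 10% also dropped WT 3. Fits of only the groups compared gave 731 and 4, and DESeq2 gave 57 and 34 in the last 2. Without a minimum of members, no G2/M gene gave 113 and 5, while the last comparison gave 2 with 2 UMIs of each S gene and 0 with H2BMc. The difference tests, with 4 and 5 calls as reported, gave 9 and 3 with DESeq2, 54 and 42 without a filter, 1 and 0 with H2BMc, 25 and 10 with 2 UMIs of each S gene, 53 and 11 with the rule at 5000 UMIs and 116 and 11 also without Kmt2d KO 2. Without a minimum of members they gave 13 and 11 with no G2/M gene and 20 and 2 with 2 UMIs; H2BMc gave 16 for Kmt2c KO, and DESeq2 size factors 3 for Kmt2d KO. The causes were not tested. The 123 higher and 51 lower genes of S-phase cells became 220 and 139 with the rule at 5000 UMIs and 267 and 102 with no G2/M gene. Leaving out each library gave 45 to 868, 5 to 105 and 0 to 866 calls, 3 to 30 and 1 to 14 differences, and exact permutation p of 0.864 to 0.896 for the share. The lowest came without WT 1 (45 calls), WT 1 or WT 3 (5) and WT 2, Kmt2c KO 2 or Kmt2c KO 3 (0). No G2/M gene with the minimum of members was not run, since WT had 10, 17 and 6 such cells. No paired analysis was possible because the library numbers only name libraries and link no tumours across genotypes. With 21 to 50 WT S-phase cells per library, low WT levels rest on a few UMIs.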

Other observations

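Cells with the S-phase profile were also present outside the tumour-cell rule. Among kept barcodes with all 3 S genes and fewer than 3 G2/M genes at 2 or more UMIs, 246 had no UMI of Krt8, H2BMc, Ptprc or Pecam1 (median 4832 UMIs), 41 had Ptprc (median 6342 UMIs) and 44 had Pecam1 (median 10080.5 UMIs). The first set numbered 3, 4 and 5 cells in WT, 66, 35 and 27 in Kmt2c KO and 9, 42 and 55 in Kmt2d KO. What these cells are was not tested.

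The inhibitor genes Cdkn1a and Cdkn2a were lower in S-phase cells than in the other tumour cells in all 9 libraries and were not called between genotypes. Cdkn1a (p21) had a median log2 ratio of -0.35 over the 9 libraries (-0.82 to -0.17) and Cdkn2a, which encodes p16 and p19Arf, of -0.72 (-1.31 to -0.05). Cdkn1a stood at 146, 102 and 128 CPM in WT S-phase cells, 165, 154 and 163 CPM in Kmt2c KO and 112, 125 and 87.7 CPM in Kmt2d KO (adjusted p = 0.331 and 0.718 against WT). For Kmt2d KO against Kmt2c KO its log2 fold change was -0.58 (adjusted p = 0.281), called in 1 of the 9 fits that left out 1 library. Cdkn2a stood at 25.8, 21.1 and 51.0 CPM, 27.2, 18.7 and 22.1 CPM and 12.5, 28.0 and 15.6 CPM (adjusted p = 0.543 and 0.586).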
